A study of Mus musculus with 24 samples.

Results

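The nuclear genes of respiratory complex I were followed in RNA and in ribosome-protected mRNA fragments (RPFs) of hippocampal slices. They were taken as every row whose symbol starts with Nduf. This gave 45 genes of the 23845 rows of the RNA table, all of them also among the 20436 rows of the RPF table. They comprised 36 subunits, 7 assembly factors (Ndufaf1 to Ndufaf7), and Ndufa4 with Ndufa4l2, which were kept apart because NDUFA4 is known as a protein of complex IV. All 45 passed the filter on low counts in RNA and 44 in RPFs. Ndufa4l2 did not pass in RPFs, where its counts were 2 to 11 in a library, and it had 8 to 21 in RNA.

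Complex I passes electrons from NADH to ubiquinone and pumps protons across the inner mitochondrial membrane. Its peripheral arm lies in the matrix and holds the flavin and the iron-sulfur clusters, and its membrane arm holds the proton channels. The catalytic core is split between nuclear and mitochondrial genes, the remaining subunits are called supernumerary, and assembly factors help to build the complex without staying in it. Neurons depend on it for much of their ATP, and loss of single subunits such as Ndufs4 causes encephalopathy in mice. The mitochondrial core genes had 0 rows in these tables, so only the nuclear part was measured.

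Slices came from male WT mice and their Tsc2+/- littermates at 28 to 42 days of age. The Tsc2+/- mice carry a germline deletion of 1 Tsc2 allele, obtained with CMV-Cre and a floxed allele on a C57BL/6J background, so every cell type is heterozygous. Slices without CA3 received vehicle or 100 µM DHPG, which activates metabotropic glutamate receptors of group I, for 5 min, and all were then put in cold cycloheximide, which holds ribosomes on the mRNA. There were 4 groups per assay (WT vehicle, WT DHPG, Tsc2+/- vehicle, Tsc2+/- DHPG) with 3 libraries each, or 24 libraries, and each library pooled slices of several mice.

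RNA libraries held 14801679 to 24067838 counts and RPF libraries 5296006 to 13613673. In the RPF libraries of replicates 2 and 3 of every group 97.9 to 98.5% of the counts above 0 were even numbers, against 48.2 to 49.0% in replicate 1. The reason is not given in the sources used here, and how many reads a count of those libraries stands for is not known. With those counts halved 0 members were called in RPFs and in footprints per RNA. Tsc2 itself lay at 128 to 137 CPM (counts scaled by TMM to a common library size) in the Tsc2+/- RNA libraries and at 186 to 214 CPM in the WT ones, and its RPFs at 76.5 to 84.5 against 122.9 to 146 CPM, with no overlap. In these bulk slices fewer cells of a type and less RNA per cell cannot be told apart. Neuronal and CA1 markers were present in every library. Summed CA3 markers were at 45.0 to 66.0 CPM in RNA and summed CA1 markers at 1048 to 1178 CPM, neither divided by length. Summed dentate gyrus markers were at 28.1 to 37.3 CPM in WT DHPG RNA and 16.4 to 23.3 in Tsc2+/- DHPG RNA. In RPFs they were at 27.7 to 32.0 and 17.0 to 21.3, so the genotypes did not overlap in DHPG, while in vehicle they overlapped in both assays. The part of this difference in the values of complex I genes was not tested. WT vehicle replicate 3 stood apart in RNA, with summed astrocyte markers at 5099 CPM where the other 11 libraries had 6256 to 7048, and summed microglia markers at 155 CPM where the others had 173 to 209. Its summed neuron markers were also the lowest, at 9328 CPM where the others had 9732 to 11153. Its summed oligodendrocyte markers, at 4552 CPM, and CA1 markers, at 1057 CPM, were not the lowest. In RPFs the summed astrocyte markers (3662 CPM) and microglia markers (194 CPM) were also lowest in WT vehicle replicate 3, and the neuron markers (7188 CPM) were not. The summed levels, and the medians and counts of the 2 comparisons with WT vehicle, are given with and without this library.

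The promoters of these genes are shown first, because subunits of a shared complex are made from genes scattered over the genome. RefSeq promoter sequences (GRCm38.p6, 250 bases before to 50 after the start) were at hand for 39 of the 45 genes, and genes without one include Ndufa2, Ndufa4l2, Ndufaf6 and Ndufb9. They were searched on both strands for GCGCATGCG (NRF1, a factor known for nuclear genes of mitochondria), AAGATGGCG (YY1) and ACCGGAAG (ETS factors). At least 1 of the 3 was found in 13 of the 39 (33.3%), against 5.89% of the 27025 genes with a promoter sequence. AAGATGGCG was in 5 of 32 subunit promoters (15.6%, against 1.64% of all genes) and in 0 of 6 assembly factor promoters. GCGCATGCG was in 2 subunit and 2 assembly factor promoters (6.25% and 33.3%, against 1.95%), and ACCGGAAG in 3 and 1 (9.38% and 16.7%, against 2.6%). GCGCATGCG is nearly its own reverse complement, so the strands of a site overlap. The sites are printed on the strand of the gene with up to 10 bases on each side and the match in capitals.

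AAGATGGCG was found in sense in all 5 genes, and its first base lay between bases 23 and 36 counted from the start of the transcript. The matches are printed to show this shared position. The motif holds ATG, and whether that ATG is the start codon of these genes was not checked. A promoter site and the sequence around a translation start cannot be told apart by these matches.
Ndufc1, chr3:51408915-51408943, minus strand: cctgcggaacAAGATGGCGccgtccgtag
Ndufs7, chr10:80249463-80249491, plus strand: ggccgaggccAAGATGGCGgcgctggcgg
Ndufa9, chr6:126849097-126849125, minus strand: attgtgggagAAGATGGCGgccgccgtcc
Ndufs6, chr13:73328433-73328459, minus strand: ggtcaccggcAAGATGGCGgcggtgct
Ndufs4, chr13:114388045-114388069, minus strand: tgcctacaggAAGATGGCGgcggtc
GCGCATGCG lay before the start in Ndufa11, Ndufa8 and Ndufaf4 and after it in Ndufaf5, and these 4 sites are printed because subunits and assembly factors shared this motif.
Ndufa11, chr17:56717692-56717720, plus strand: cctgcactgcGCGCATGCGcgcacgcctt
Ndufa8, chr2:36049329-36049357, minus strand: tcgctggagaCGCATGCGCagatggtacc
Ndufaf4, chr4:24897960-24897988, plus strand: ccagatgtctGCGCATGCGcctgtgcgga
Ndufaf5, chr2:140170652-140170680, plus strand: agtcccgttgGCGCATGCGcctaatagaa
The ACCGGAAG sites of the core subunits Ndufs3 and Ndufs8 lay in antisense, with their first base at bases 2 and 16 of the transcript, and are printed as the matches in core subunits.
Ndufs3, chr2:90904703-90904730, minus strand: cacatttccaCTTCCGGTccgtgccctt
Ndufs8, chr19:3912742-3912769, minus strand: taggctccgcCTTCCGGTtgaaccgcat
A match describes letters only. The 5 genes with AAGATGGCG ranged in RNA from 17.0 (Ndufs4) to 62.9 (Ndufs7) CPM per kb in WT vehicle, where all 36 subunits ranged from 13.2 to 161.

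Levels were compared between genes per length only, as CPM per kb of transcript for RNA and CPM per kb of coding sequence for RPFs, the latter less the 30 bases at each end that the authors had left out. In WT vehicle the median subunit had 50.8 CPM per kb ± 4.37 (SD, n = 3) of RNA and 311 ± 12.1 of RPFs. The median assembly factor had 7.30 ± 0.395 and 34.1 ± 3.32, and the median of all genes tested was 6.58 and 16.9. The subunit median was 5.69 to 7.93 times the assembly factor median in RNA and 7.82 to 10.6 times in RPFs over the 12 libraries of an assay, so the order held in every library. The ratio of the levels per kb, or footprints per RNA, had a median of 5.97 ± 0.914 for subunits, 4.74 ± 0.332 for assembly factors and 2.28 for all genes, and subunits stood 1.06 to 1.52 times above assembly factors in the 12 library pairs. This gap was small beside the spread within each class, which ran from 1.81 to 35.4 among subunits and from 2.16 to 9.79 among assembly factors. Genes are not replicates, and these differences carry no p.

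**Figure D1:**
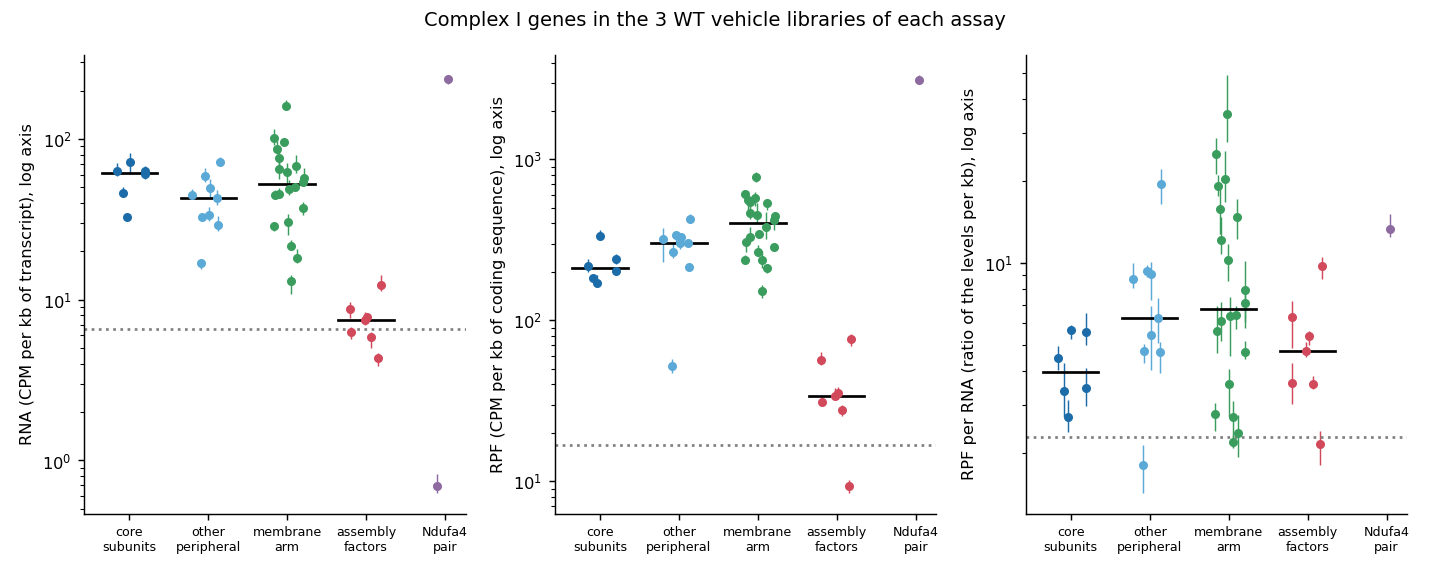
Mean levels of complex I genes in the 3 WT vehicle libraries, per kb, for RNA (left), RPFs (middle) and their ratio (right), on log axes. Points are genes with bars from the lowest to the highest library, black lines the median gene of a role, and the dotted line the median of all genes tested, which every subunit exceeds in RNA and RPFs while the 7 assembly factors lie on both sides of it. Ndufa4l2 appears in RNA only.

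The summed subunits took 1929 CPM ± 146 (SD, n = 3) of the RNA of vehicle-treated WT slices and 1853 ± 102 after DHPG, and in Tsc2+/- slices 1841 ± 85.8 with vehicle and 1844 ± 47.6 after DHPG. Their RPFs took 5377 ± 206, 5668 ± 179, 5480 ± 144 and 5609 ± 234 CPM in the same order. The 7 assembly factors together took 96.9 ± 6.13, 92.1 ± 4.60, 92.7 ± 3.92 and 93.3 ± 4.76 CPM of RNA and 188 ± 7.31, 196 ± 1.16, 198 ± 11.9 and 199.9 ± 10.7 CPM of RPFs. These sums were not tested. The 3 WT vehicle libraries had subunit sums of 1875, 1817 and 2095 CPM in RNA, and without replicate 3 (a value added after the data were seen) their mean was 1846 in RNA and 5464 in RPFs, and that of the assembly factors 93.8 and 184. Subunits of the other respiratory complexes (II to V, 45 of 48 listed symbols measured in RNA) stood higher, with a median of 100.4 CPM per kb of RNA and 650 of RPFs in WT vehicle. Their footprints per RNA had medians of 5.01, 5.12 and 3.91 in WT vehicle replicates 1 to 3, below those of complex I subunits at 5.82, 6.94 and 5.13, and the highest of the former lay just under the lowest of the latter.

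The 7 nuclear core subunits include those that carry the redox centres. In WT vehicle RNA Ndufs3, of the module that hands electrons to ubiquinone, had 72.3 CPM per kb ± 11, followed by Ndufv1, which binds NADH and the flavin, with 63.7 ± 3.79, Ndufs7, which holds the last iron-sulfur cluster, with 62.9 ± 6.83, and the iron-sulfur protein Ndufv2 with 60.3 ± 4.37. These 4 overlapped each other. Ndufs8, an iron-sulfur protein with 45.8 ± 3.82, and Ndufs1, the largest subunit of the complex, with 32.7 ± 0.685 stood below, each clear of its neighbour. In RPFs the order changed. Ndufv2 led with 334 CPM per kb ± 27.9, followed by Ndufs3 with 239 ± 17.3, Ndufs7 with 217 ± 21.2 and Ndufs8 with 203 ± 11.2, of which the latter 3 overlapped in sequence. Ndufs1 with 184 ± 10.2 and Ndufv1 with 172 ± 16.0 stood lower and overlapped. Accordingly the footprints per RNA were 5.65 ± 0.335 for Ndufs1 and 5.58 ± 0.834 for Ndufv2, through 4.46 ± 0.455 for Ndufs8, 3.48 ± 0.568 for Ndufs7 and 3.39 ± 0.795 for Ndufs3, down to 2.71 ± 0.392 for Ndufv1.

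Among the supernumerary subunits Ndufb9, of the membrane arm, had the most RNA, with 156, 151 and 176 CPM per kb in WT vehicle replicates 1 to 3. Ndufb10 of the same arm had 92.1, 96.7 and 116 CPM per kb, and Ndufa10 had 92.0, 95.7 and 101 CPM per kb. Ndufb9 lay above both without overlap, and these overlapped each other. The lowest RNA was that of Ndufb2, a small membrane arm subunit, with 14.2, 10.9 and 14.4 CPM per kb. Ndufs4, a peripheral arm subunit whose loss is used as a mouse model of Leigh syndrome, had 18, 15.5 and 17.5 CPM per kb. Ndufa11, of the membrane arm, had 17.0, 17.0 and 20.6 CPM per kb. Ndufb2 lay below both of these without overlap.

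Footprints per RNA turned this order around for several genes, and RNA is the denominator of that ratio. Ndufb2 had the highest ratio of all subunits, with 29.3, 49.0 and 27.9 in WT vehicle replicates 1 to 3. Ndufab1, the mitochondrial acyl carrier protein, had 21.3, 28.9 and 25.5, and Ndufa1, a membrane subunit of 70 residues, had 18.4, 25.9 and 16.8. Each overlapped the next. The lowest supernumerary subunits were Ndufv3 with 1.85, 2.14 and 1.43, Ndufa10 with 2.15, 2.33 and 2.1, and Ndufb10 with 2.76, 2.39 and 1.93, which also overlapped in sequence. The value of Ndufab1 depends on which transcript its RNA was divided by, since RefSeq has transcripts of 639 to 2029 bases, and was 7.96 ± 1.2 with the shortest coding one. Ndufv3 has transcripts of 488 to 1580 bases, and its ratio was 0.558 ± 0.110 with RNA per kb of the shortest. Its RPFs were still divided by the longest coding sequence, of 1407 bases, which a transcript of 488 bases cannot hold. That value therefore mixes 2 transcripts, and the place of Ndufv3 with a shorter coding sequence was not tested. With RNA per kb of the shortest coding transcript, Ndufb2 with 31.8 ± 10.6 and Ndufa1 with 20.3 ± 4.84 kept the highest places. The lowest places changed. Ndufb8, with transcripts of 682 to 2159 bases, went from 6.44 to 2.03 ± 0.204, below Ndufa10 (2.19 ± 0.120) and Ndufb10 (2.36 ± 0.415). Ndufb9 with 2.31 ± 0.278 was also below Ndufb10.

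**Figure D2:**
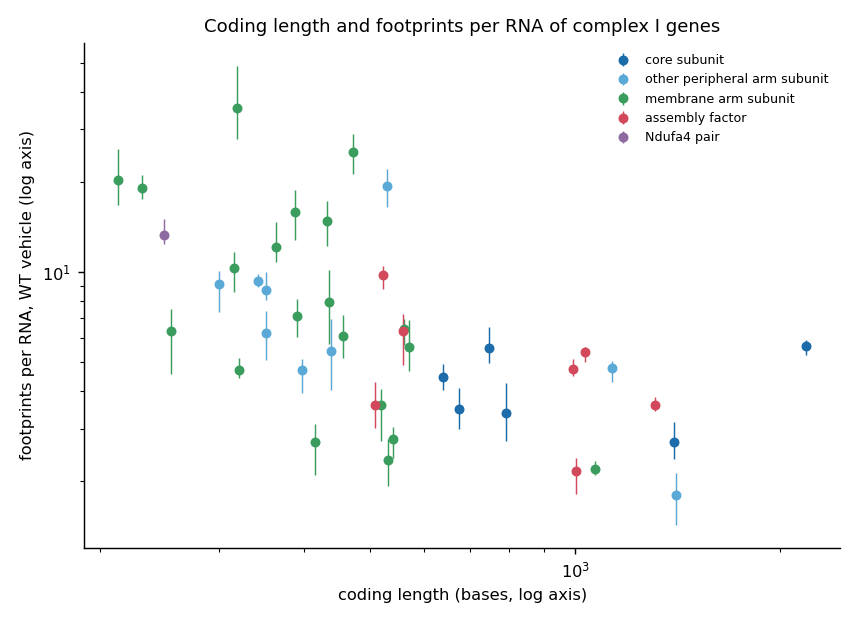
Footprints per RNA (WT vehicle, mean with bars from the lowest to the highest of 3 library pairs) against coding length in bases, both on log axes, coloured by role. Short membrane arm subunits such as Ndufa1 (213 bases) and Ndufb2 (318 bases) sit at the top left with means of 20.3 and 35.4, and long genes such as Ndufv1 and Ndufv3 at the lower right.

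Complex I subunits are mostly short, with a median coding length of 447 bases against 1447.5 for all genes measured. Across the 36 subunits coding length and footprints per RNA had a Spearman's rho of -0.66, and across 12742 genes a rho of -0.38. Both are descriptions over genes that share libraries and normalization, and both quantities use the coding length.

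Ndufa4 was the most abundant member. Its RNA was at 238, 220 and 248 CPM per kb in WT vehicle and its RPFs at 2972, 3323 and 3094 CPM per kb, above every subunit in every library of that group. Ndufa4l2, its paralog known from hypoxic and vascular cells, was at 0.605, 0.618 and 0.788 CPM in WT vehicle RNA. Among assembly factors Ndufaf3, which with Ndufaf4 binds early intermediates of the ubiquinone module, had the most RNA with 11.4, 11.4 and 14.2 CPM per kb. Ndufaf2, a chaperone related to Ndufa12, had 8.78 ± 0.991, Ndufaf7, a methyltransferase of the mitochondrial matrix, 7.76 ± 0.508, and Ndufaf1, of the membrane arm assembly complex, 7.51 ± 0.740. Ndufaf5, which hydroxylates an arginine of Ndufs7, had 6.31 ± 0.520, Ndufaf4 had 5.85 ± 0.720 and Ndufaf6 had 4.37 ± 0.424. Ndufaf3 lay above the others without overlap and Ndufaf6 below them. Ndufaf4 had the highest footprints per RNA of the class with 8.77, 10.5 and 10.1, and Ndufaf6 the lowest with 2.26, 2.40 and 1.81, and neither overlapped the other 5.

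The effect of genotype was asked first, by comparing Tsc2+/- with WT in vehicle. No complex I gene differed in RNA, RPFs or footprints per RNA by the edgeR quasi-likelihood test with Benjamini-Hochberg adjustment at an adjusted p under 0.1. That is 0 of 45 members in RNA, where 0.0896% of all genes were called, 0 of 44 in RPFs (0.0233% of all genes), and 0 of 44 in footprints per RNA (0% of all genes). At an unadjusted p under 0.05, 0 members were higher in Tsc2+/- RNA (2.6% of all genes) and 7 lower (2.3%), 5 were higher in RPFs (3.38%) and 1 lower (3.17%), and 7 were higher in footprints per RNA (2.71%) and 0 lower (3.06%). Once WT vehicle replicate 3 was left out, 0 members were higher and 0 lower in RNA (2.3% and 2.04% of all genes), 5 higher and 1 lower in RPFs (4.45% and 4.22%) and, leaving out its RNA library, 2 higher and 0 lower in footprints per RNA (2.13% and 2.52%). With WT vehicle replicate 2 left out instead, 17 were lower in RNA (3.6% of all genes), and without its RNA library 17 were higher in footprints per RNA (4.14%). With DESeq2 Ndufa4 was called in RPFs (0.195% of the genes with an adjusted p) and in footprints per RNA (0.00782%), and 0 members in RNA. In the DESeq2 tests that called 0 members, here and in the other comparisons, 0 to 2.02% of the genes were called.

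Ndufa4 had 562, 628 and 585 CPM of RPFs in WT vehicle replicates 1 to 3 and 643, 702 and 682 in Tsc2+/- vehicle. The Tsc2+/- libraries lay above the WT ones without overlap. Its log2 fold change was 0.19 (SE 0.0484, adjusted p = 0.335), higher in 3 of 3 contrasts of same-numbered libraries. Its RNA went the other way, with 118, 109 and 124 CPM in WT vehicle and 106, 105 and 100.4 in Tsc2+/- vehicle, again without overlap (log2 fold change -0.17, SE 0.0603, adjusted p = 0.920). Footprints per RNA of Ndufa4 were 12.5, 15.1 and 12.4 in WT vehicle and 16.0, 17.5 and 17.9 in Tsc2+/- vehicle. Their log2 fold change of 0.37 (SE 0.0755) had an adjusted p of 0.195 with edgeR and 0.0126 with DESeq2, and over the 37 alternatives the adjusted p ran from 0.0126 to 0.998 with 3 calls and no change of sign. The others were those without the RPF library of WT vehicle replicate 1 (0.0155% of all genes called) and without the RNA library of WT vehicle replicate 2 (0.0781%). In DHPG the same difference between genotypes was 0.10 (SE 0.0755, adjusted p = 0.9997), and the test of the difference between those effects gave an adjusted p of 0.999.

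The smallest p for lower RNA in Tsc2+/- vehicle was that of Ndufa2, of the peripheral arm, at 19.2, 18.6 and 22.9 CPM in WT and 16.6, 18.7 and 12.6 in Tsc2+/-. The groups overlapped, and the log2 fold change of -0.35 (SE 0.12, adjusted p = 0.920) was -0.86 in replicate 3 and 0.01 in replicate 2. The smallest p for higher RNA was that of Ndufv1 at 0.05 (SE 0.0613, adjusted p = 0.991). Ndufb10 had the smallest p for lower RPFs, with 119.8, 108.7 and 105.8 CPM in WT and 96.6, 105.5 and 93.7 in Tsc2+/-, which lay next to each other without overlap. Its log2 fold change was -0.18 (SE 0.0736, adjusted p = 0.667), lower in 3 of 3 contrasts. Ndufb10 lies on chromosome 17 at 24722060 to 24724423 (mm10), near Tsc2 at 24595816 to 24632676, and the part of this nearness in its value was not tested. Ndufaf6, with only 3.51, 2.64 and 3.88 CPM of RNA in Tsc2+/- and 4.91, 4.21 and 5.07 in WT, had footprints per RNA of 3.28, 3.58 and 5.32 against 2.26, 2.40 and 1.81, without overlap (log2 fold change 0.92, SE 0.345, adjusted p = 0.826). For lower footprints per RNA the smallest p was that of Ndufv1 at -0.12 (SE 0.0915, adjusted p = 0.898).

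Over the 36 subunits the median log2 fold change of this comparison was -0.07 in RNA, 0.01 in RPFs and 0.12 in footprints per RNA, where the median of all genes tested was within 0.01 of 0. In RNA 31 of 36 had a negative value and in footprints per RNA 31 of 36 a positive one. The 3 contrasts of same-numbered libraries had subunit medians of -0.004, 0.06 and -0.28 in RNA and 0.06, -0.08 and 0.38 in footprints per RNA, so replicate 3 carried both. Without WT vehicle replicate 3 the median was 0.02 in RNA, -0.03 in RPFs and, leaving out its RNA library, 0.01 in footprints per RNA. With replicate 2 of WT vehicle left out it was -0.16 in RNA, 0.04 in RPFs and, leaving out its RNA library, 0.19 in footprints per RNA. After removal of trends with GC content and length it was -0.01, -0.001 and 0.02. Assembly factors had medians of -0.05, 0.05 and 0.10, so the subunits less the assembly factors gave -0.02, -0.03 and 0.02. By replicate number this gap ran from -0.11 to 0.04 in RNA, from -0.08 to 0.09 in RPFs and from -0.08 to -0.03 in footprints per RNA, where it had the other sign.

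In DHPG the effect of genotype was called for 0 of 45 members in RNA (0.0482% of all genes), 0 of 44 in RPFs (0.0155%) and 0 of 44 in footprints per RNA (0%), by edgeR and by DESeq2. At an unadjusted p under 0.05 there were 2 members in RNA (4.64% of all genes), 0 in RPFs (4.13%) and 1 in footprints per RNA (3.03%). The smallest p were those of Ndufc1, a small membrane arm subunit. Its RNA was 9.26, 10.03 and 10.08 CPM in WT DHPG and 11.06, 11.48 and 14.67 in Tsc2+/- DHPG, without overlap (log2 fold change 0.34, SE 0.13, adjusted p = 0.930). Its footprints per RNA were 24.8, 28.1 and 24.7 in WT DHPG and 22.2, 24.1 and 15.6 in Tsc2+/- DHPG (log2 fold change -0.35, SE 0.13, adjusted p = 0.9997), also without overlap. For lower RNA it was Ndufs6, a zinc-binding peripheral arm subunit, with 22.9, 21.3 and 23.3 against 19.0, 20.7 and 18.8 CPM (log2 fold change -0.21, SE 0.10, adjusted p = 0.997). Its RPFs were 80.2, 91.6 and 78.5 against 79.1, 67.3 and 79.3 CPM and overlapped (-0.13, SE 0.0878, adjusted p = 0.9995), and without Tsc2+/- DHPG replicate 2 this value was 0.007. For higher RPFs it was Ndufa10 at 0.10 (SE 0.0601, adjusted p = 0.9995) and for higher footprints per RNA Ndufa7, of the peripheral arm, at 0.20 (SE 0.12, adjusted p = 0.9997). The subunit medians were -0.003 in RNA, -0.02 in RPFs and -0.01 in footprints per RNA.

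**Figure D3:**
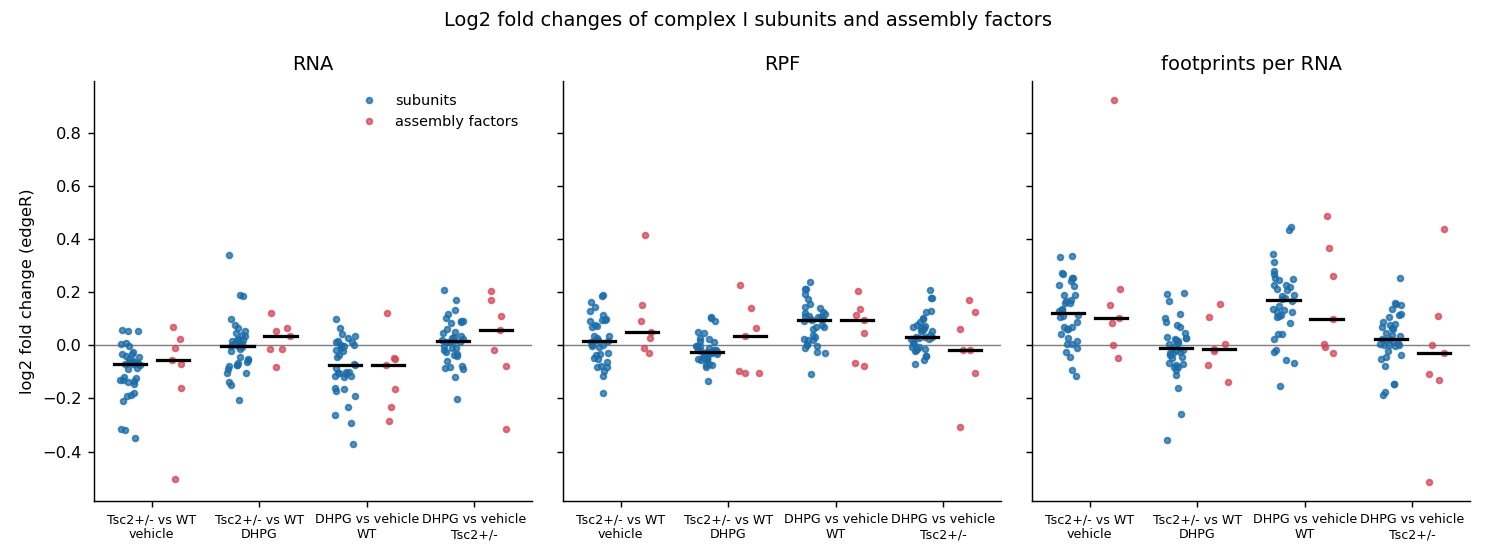
Log2 fold change (edgeR, y axis) of each subunit (blue) and assembly factor (red) in RNA, RPFs and footprints per RNA, for the 4 comparisons between groups on the x axis, with black lines at the medians. The medians of all genes tested lie within 0.01 of 0, 0 points passed an adjusted p under 0.1, and the subunit medians farthest from 0 are those of footprints per RNA in the comparisons with WT vehicle, at 0.12 and 0.17.

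The response to DHPG was asked within each genotype. In WT the test called 0 of 45 members in RNA (0% of all genes), 0 of 44 in RPFs (0.0311%) and 0 of 44 in footprints per RNA (0.0548%). At an unadjusted p under 0.05, 0 members were higher after DHPG in RNA (3.7% of all genes) and 5 lower (2.75%), 8 were higher in RPFs (3.79%) and 0 lower (2.92%), and 9 were higher in footprints per RNA (4.4%) and 0 lower (4.66%). DESeq2 called 0 members in RNA and RPFs and 2 in footprints per RNA, Ndufa4 and Ndufv2, where it called 2.15% of the genes with an adjusted p. Without WT vehicle replicate 3, at an unadjusted p under 0.05, 2 members were higher and 1 lower in RNA (3.51% and 2.86% of all genes), 6 higher and 0 lower in RPFs (4.21% and 3.24%) and, leaving out its RNA library, 3 higher and 0 lower in footprints per RNA (3.36% and 3.88%). Leaving out WT vehicle replicate 2 instead, 16 were lower in RNA (4.31% of all genes) and, leaving out its RNA library, 22 were higher in footprints per RNA (5.83%). This comparison shares the WT vehicle libraries with the genotype comparison in vehicle, so their values are not independent.

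Ndufb4, of the membrane arm, had the smallest p for higher RPFs after DHPG in WT. It had 161, 187 and 180.3 CPM in WT vehicle and 187, 225 and 212 in WT DHPG. The groups touched at 187 CPM, with the highest vehicle library just above the lowest DHPG library, while all 3 contrasts of same-numbered libraries were positive (0.22, 0.26 and 0.23). The log2 fold change was 0.24 (SE 0.0615, adjusted p = 0.280). In Tsc2+/- it was 0.06 with an SE of 0.0612 and an adjusted p of 0.9999, and the RPFs there were 187, 225 and 189.7 CPM in vehicle and 199, 222 and 208 in DHPG. Its RNA had a log2 fold change of -0.01 (SE 0.11) in WT. For lower RPFs the smallest p was that of Ndufa7 at -0.11 (SE 0.0763, adjusted p = 0.811).

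Ndufv2 had the smallest p for footprints per RNA. These were 5.24, 6.53 and 4.97 in WT vehicle and 6.67, 6.70 and 7.33 in WT DHPG, without overlap. The log2 fold change was 0.31 (SE 0.0941, adjusted p = 0.234 with edgeR and 0.0998 with DESeq2), with 0.35, 0.04 and 0.56 in the same-numbered contrasts. Its RNA was 98.2, 91.8 and 106 CPM in WT vehicle and 87.3, 92.2 and 83.7 in WT DHPG, which overlapped, and its RPFs were 216, 252 and 221 against 245, 259 and 257 CPM, which also overlapped. Leaving out WT vehicle replicate 2 changed this count. Without its RNA library 6 members were called, Ndufa1, Ndufa4, Ndufb5, Ndufb6, Ndufs3 and Ndufv2, all higher after DHPG and with log2 fold changes of 0.31 to 0.59, where the share of all genes called was also higher, at 1.47%. Without its RPF library 1 was called, Ndufv2 (0.993% of all genes), and without replicate 2 of every group 2 were called, Ndufa1 and Ndufv2 (0.389%). Without its RNA library Ndufv2 was also called in RNA, at -0.26 (0.763% of all genes), and in footprints per RNA for DHPG averaged over genotypes (0.313%). Without WT vehicle replicate 3, 0 were called. Ndufc1 had footprints per RNA of 17.6, 21.2 and 18.7 in WT vehicle and of 24.8, 28.1 and 24.7 in WT DHPG, without overlap (log2 fold change 0.44, SE 0.132, adjusted p = 0.235). For lower footprints per RNA the smallest p was that of Ndufa7 at -0.15 (SE 0.12, adjusted p = 0.728). In RNA the smallest p were those of Ndufb3, of the membrane arm, with 32.2, 32.4 and 37.2 CPM in vehicle against 29.7, 29.5 and 27.6 in DHPG without overlap (-0.23, SE 0.0873, adjusted p = 0.725), and of Ndufc2, of the same arm, at 0.10 (SE 0.0800, adjusted p = 0.900).

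**Figure D4:**
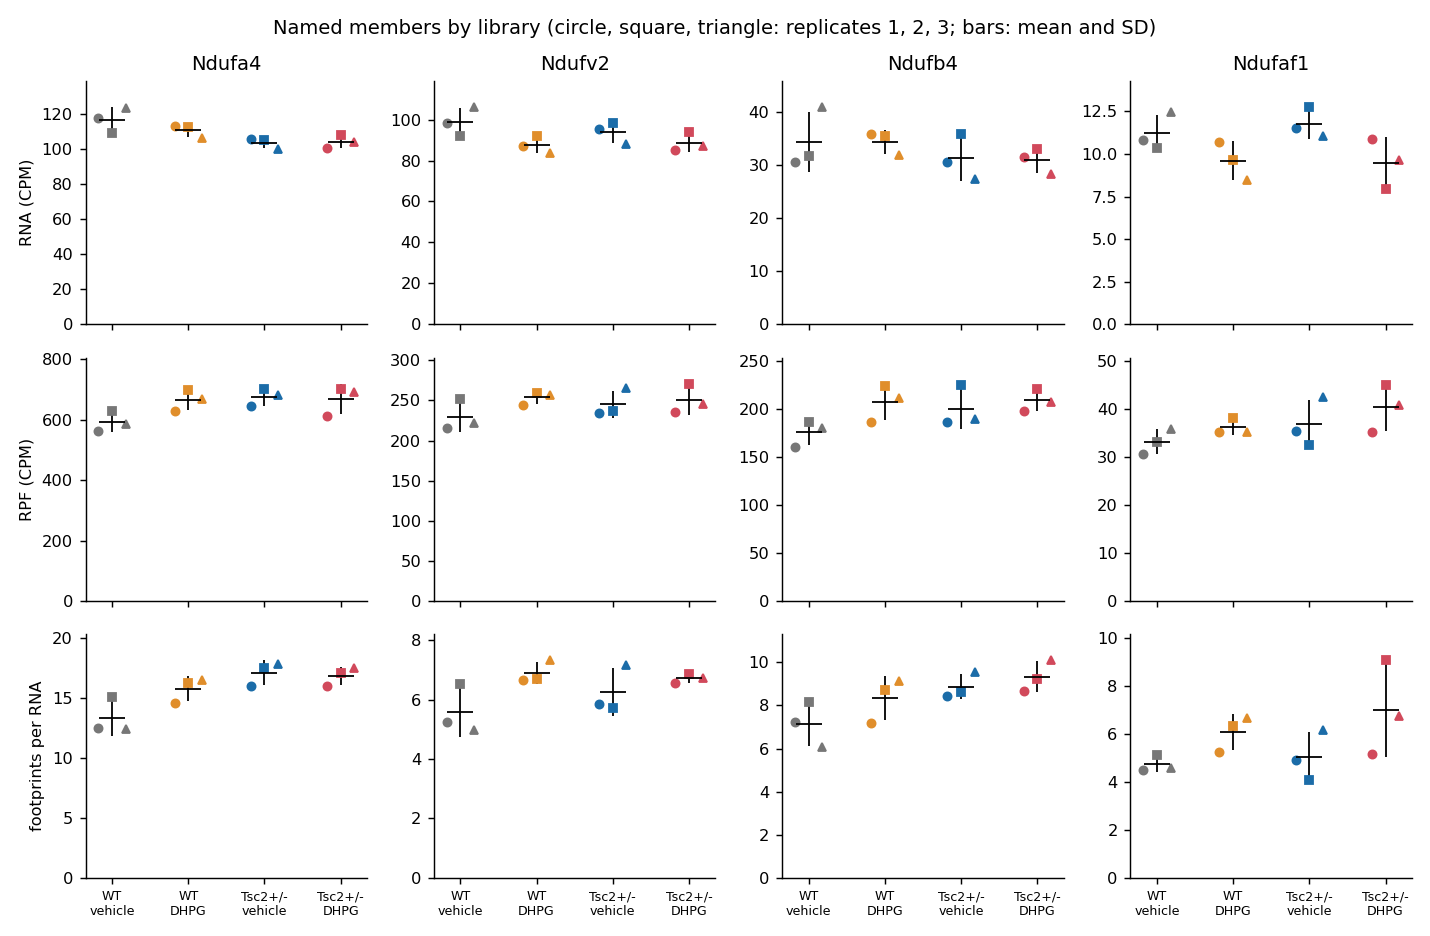
CPM of RNA (top), CPM of RPFs (middle) and footprints per RNA (bottom) of Ndufa4, Ndufv2, Ndufb4 and Ndufaf1 in the 4 groups, from 0. Symbols are replicates 1, 2 and 3, and bars the mean and SD (n = 3). For Ndufa4, WT vehicle has the lowest mean footprints per RNA (13.4) and the other groups lie at 15.8 to 17.1.

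The subunit median in WT after DHPG was -0.07 in RNA, 0.10 in RPFs and 0.17 in footprints per RNA. In RPFs 30 of 36 subunits had a positive value, and the 3 same-numbered contrasts had medians of 0.06, 0.08 and 0.12. The footprints per RNA had medians of 0.11, -0.06 and 0.40 and RNA of -0.06, 0.14 and -0.27, so in these both signs occurred. Without WT vehicle replicate 3 the medians were 0.05 in RNA, 0.05 in RPFs and, leaving out its RNA library, 0.04 in footprints per RNA. With replicate 2 of WT vehicle left out they were -0.14, 0.10 and, for its RNA library alone, 0.25. With the trend with GC content and length removed they were -0.05, 0.02 and 0.05. Assembly factors had -0.07 in RNA, 0.09 in RPFs and 0.10 in footprints per RNA. The gap between the classes was 0.001 in RNA, 0.001 in RPFs and 0.07 in footprints per RNA, where it was -0.03, -0.15 and 0.24 by replicate number. Subunits of complexes II to V had medians of -0.05, 0.10 and 0.15.

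In Tsc2+/- slices the response to DHPG was called for 0 of 45 members in RNA (0% of all genes), 0 of 44 in RPFs (0%) and 0 of 44 in footprints per RNA (0%), by edgeR and by DESeq2. At an unadjusted p under 0.05 there were 1 member in RNA (4.32% of all genes), 2 in RPFs (4.03%) and 2 in footprints per RNA (3.65%). Ndufb8, of the membrane arm, had the smallest p for higher RPFs, with 146, 143 and 139 CPM in vehicle and 151, 167 and 166 in DHPG, without overlap (log2 fold change 0.18, SE 0.0659, adjusted p = 0.9999). Its RPFs in WT were 143, 149 and 137 CPM in vehicle and 166, 161 and 156 in DHPG, also without overlap (0.17, SE 0.0656, adjusted p = 0.632). Ndufb8 was thus higher after DHPG in 6 of 6 same-numbered contrasts, and averaged over genotypes its log2 fold change was 0.18 (SE 0.0465, adjusted p = 0.282), which did not pass the threshold. Ndufaf1 had the smallest p for lower RNA, with 11.52, 12.75 and 11.05 CPM in vehicle and 10.9, 7.92 and 9.66 in DHPG (log2 fold change -0.32, SE 0.14, adjusted p = 0.9998), without overlap. Its footprints per RNA were 4.91, 4.06 and 6.14 against 5.16, 9.05 and 6.76 and overlapped (0.44, SE 0.17, adjusted p = 0.999). Ndufb6, of the membrane arm, had the smallest p for higher RNA at 0.21 (SE 0.11, adjusted p = 0.9998). Ndufaf6, at 8.22 to 18 CPM of RPFs in these 6 libraries, had the smallest p for lower RPFs at -0.31 (SE 0.23, adjusted p = 0.9999) and for lower footprints per RNA at -0.51 (SE 0.34, adjusted p = 0.999). Its RPF value was 0.16 without Tsc2+/- vehicle replicate 3, the library at 18 CPM.

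The subunit medians in Tsc2+/- were 0.02 in RNA, 0.03 in RPFs and 0.02 in footprints per RNA. The test of the difference between the DHPG effects of the genotypes (interaction) called 0 of 45 members in RNA (0% of all genes), 0 of 44 in RPFs (0%) and 0 of 44 in footprints per RNA (0%). At an unadjusted p under 0.05 there were 4 members in RNA (3.47% of all genes), 2 in RPFs (3.81%) and 5 in footprints per RNA (4.06%), and DESeq2 called 0 in each. No complex I gene was shown to respond differently to DHPG in the genotypes.

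Averaged over treatments, genotype was called for 0 of 45 members in RNA (0.227% of all genes), 0 of 44 in RPFs (0.0621%) and 0 of 44 in footprints per RNA (0%), with 3, 4 and 4 at an unadjusted p under 0.05 (6.12%, 6.63% and 4.5% of all genes). Averaged over genotypes, DHPG was called for 0 of 45 in RNA (0.0207%), 0 of 44 in RPFs (0.0311%) and 0 of 44 in footprints per RNA (0.0469%), with 4, 7 and 5 at an unadjusted p under 0.05 (7.49%, 6.82% and 8.5%). DESeq2 called 0 members in these 6 tests. For DHPG in RPFs 31 of 36 subunits had a positive value, with a median of 0.05 and replicate medians of 0.05, 0.07 and 0.07, and a median of 0.01 once the trend with GC content and length was removed.

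Read library by library, the subunits moved together in some libraries and not in others. In Tsc2+/- vehicle replicate 1, 19 of 36 stood above their own mean in RNA, and in WT DHPG replicate 3, 18 of 36 in RPFs. Of all genes tested, 7404 of 14516 stood above their own mean in the RNA of WT vehicle replicate 3. In WT vehicle replicate 3 the median subunit stood 0.19 above its own mean over the 12 RNA libraries on the log2 scale, with 34 of 36 subunits above, while in RPFs it stood at -0.11 with 4 of 36 above and in footprints per RNA at -0.31 with 3 of 36 above. The other 11 libraries lay between -0.09 and 0.10 in RNA, and the other 11 pairs between -0.11 and 0.10 in footprints per RNA. In RPFs WT DHPG replicate 2 and Tsc2+/- DHPG replicate 2 were highest at 0.09, with 33 and 30 of 36 subunits above their own mean. Subunits of complexes II to V had 0.19, -0.12 and -0.32 in WT vehicle replicate 3, close to complex I. The 7 Ndufaf genes had 0.19 in its RNA, 0.07 in its RPFs and -0.08 in footprints per RNA. The 11 assembly factors of other names had 0.11, -0.08 and -0.19, with 2 of 11 above their own mean in RPFs and 1 of 11 in footprints per RNA, so their RPFs were low there and those of the Ndufaf genes were not. The summed neuron, astrocyte and microglia markers were all lowest in the same RNA library, while those of oligodendrocytes and CA1 were not. The part of these markers in the result was not tested.

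**Figure D5:**
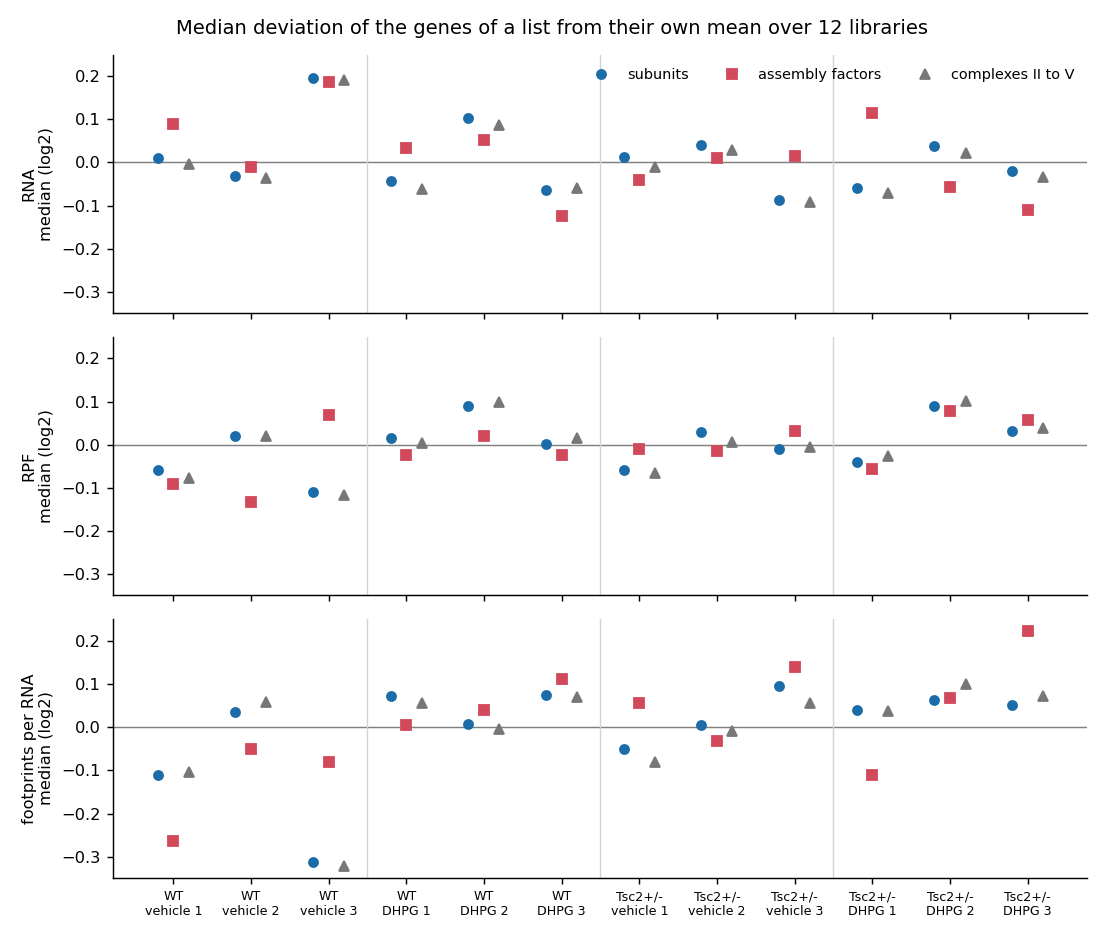
Median deviation (log2, y axis) of complex I subunits, assembly factors and subunits of complexes II to V from each gene's own mean over 12 libraries, for RNA, RPFs and footprints per RNA, by library. WT vehicle 3 is at 0.19 for subunits in RNA and at -0.31 in footprints per RNA, outside the range of the other 11 in both.

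Assembly factors of other names, such as Ecsit, Timmdc1 and Foxred1, were listed as 11 symbols and all were measured. They resembled the Ndufaf genes in RNA, with a median of 6.81 CPM per kb ± 0.166 in WT vehicle, and lay below them in footprints per RNA at 2.40 ± 0.0939 against 4.74 ± 0.332, without overlap in the 3 library pairs. The test called 0 of the 11 in each of the 4 comparisons and each assay. Among complexes II to V, 1 of 42 was called in RPFs for DHPG in WT (0.0311% of all genes), Usmg5, a small subunit of the ATP synthase, and 14 of 42 had a positive value at an unadjusted p under 0.05 (3.79% of all genes).

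Counts of some members may hold reads of other genes. In the RefSeq annotation 7 members overlap another protein-coding gene, among them Ndufa1, Ndufa13, Ndufa2, Ndufb11 and Ndufv2, and 5 have a pseudogene named after them, Ndufa11, Ndufa12, Ndufab1, Ndufs5 and Ndufs6. Whether the counting used strand is not given in the sources used here.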

How the data were processed

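RNA and RPFs were measured in 24 libraries, 8 groups of 3. The authors trimmed reads with Cutadapt and Trimmomatic, removed rRNA and tRNA reads with Bowtie2, aligned to mm10 with TopHat2, dropped duplicates by molecular identifier, and deposited expected counts per gene from RSEM, for RPFs over the coding sequence less 30 bases at each end and for RNA over the whole transcript. By the methods of the study, the replicates of both genotypes were made in batches whose RNA was selected for poly(A). Replicates are pools of slices, and the labels do not give which animals a pool held, so p-values measure the spread between these libraries. Columns without a sample numbered 0.

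The expected counts were rounded, filtered with filterByExpr (minimum count 10) and scaled by TMM. Genes were tested with the edgeR 4.0.16 quasi-likelihood test (R 4.3.3, limma 3.58.1) with terms for group and replicate number, fitted to the 12 libraries of each assay, as the study removed batches before testing. For footprints per RNA an assay-by-group interaction was fitted to the 24 libraries, with replicate number within each assay. By the paper, part of a lysate went to RNA and the remainder to RPFs, and this pairing was not in the main model. A fit with a block for each lysate was run as an alternative. Log2 CPM used a prior count of 2. Benjamini-Hochberg adjustment covered every gene in a fit, and genes were called under 0.1. The fits were tested on simulated data, with changes in abundant genes larger than most of those given here and without replicate effects. The recovery of smaller changes was not tested. Alternatives were DESeq2 1.42.0, ComBat (sva 3.50.0) with DESeq2, other scalings and filters, no replicate block, removal of trends with GC content and length per library, and leaving out replicates or libraries. Lengths came from RefSeq, the longest curated transcript and its coding sequence. Levels divided by these lengths were compared in prose, without a test.

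The members, gene lists and roles were chosen with earlier results of these data known. Genes were named by rule: the core subunits (of which 1 is not reported here, nor drawn in the plots of levels and of length), all Ndufaf genes, the 3 highest and 3 lowest supernumerary subunits by RNA and by footprints per RNA, every gene called, the smallest unadjusted p in each direction of 4 comparisons and 3 measures, and genes that failed the filter. Ndufc1, Ndufb8 and Ndufaf6 were given in further comparisons after their values were seen.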

Additional observations from a re-analysis of the deposited data

How the results depend on the processing

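The calls of complex I genes stayed at 0 in 604 combinations of test and alternative and moved in 10. The 604 include the 21 tests read again at an adjusted p under 0.05, which could not move once 0 members passed 0.1. DESeq2 called 1 in RPFs and 1 in footprints per RNA for genotype in vehicle, and 2 in footprints per RNA for DHPG in WT. Leaving out replicates or libraries gave 0 to 1 in RNA for DHPG in WT, 0 to 1 in footprints per RNA for genotype in vehicle, 0 to 6 (with 1 and 2 between) for DHPG in WT and 0 to 1 for DHPG averaged. With the trend with GC content and length removed, the RPF medians were 0.024 for subunits and -0.0080 for assembly factors for DHPG in WT, 0.014 for subunits for DHPG averaged, and the assembly factor median in footprints per RNA was 0.0040 for DHPG in WT. The causes were not tested.

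Leaving out replicates or libraries, the assembly factor medians in RNA ran from -0.18 to 0.057 for genotype in vehicle, from -0.18 to -0.029 for DHPG in WT and from -0.10 to 0.053 for genotype averaged. In RPFs they ran from -0.038 to 0.097 for genotype in DHPG, from 0.020 to 0.12 for DHPG in WT and from 0.0055 to 0.082 for genotype averaged, and the subunit medians from 0.047 to 0.11 for DHPG in WT and from 0.039 to 0.070 for DHPG averaged. In footprints per RNA the assembly factors ran from -0.076 to 0.071 for genotype in DHPG (0.065 without replicate 3), from 0.018 to 0.23 for DHPG in WT (0.033, 0.063, 0.14 and 0.16 between), from -0.10 to 0.085 for DHPG in Tsc2+/- and from -0.024 to 0.075 for DHPG averaged, and the subunits from -0.062 to 0.030 for genotype in DHPG. Single genes changed sign in 4 cases. Ndufc2 RNA for DHPG in WT ran from -0.0069 (without WT vehicle replicate 2) to 0.20, Ndufs6 RPFs for genotype in DHPG from -0.21 to 0.0074 (without Tsc2+/- DHPG replicate 2), and Ndufaf6 RPFs for DHPG in Tsc2+/- from -0.56 to 0.11 (without replicate 3) and 0.16 (without Tsc2+/- vehicle replicate 3).

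Same-numbered libraries of different groups had correlated deviations of 0.02 to 0.14 in RNA and 0.03 to 0.26 in RPFs, not all over 0.1. By the study's methods the replicates were made in 3 batches of littermates. All RPF libraries of replicate 1 differ from those of replicates 2 and 3 in their share of even counts. Correlations in RPFs were 0.12 to 0.26 within replicate 1, 0.03 to 0.10 within replicate 2 and 0.06 to 0.22 within replicate 3. Replicate 1 thus stands apart in RPFs by its even counts, while its correlations overlap those of replicate 3 and lie above those of replicate 2. These values do not show that each number is a batch. No source used here says which batch a number is. With no replicate block 0 members were called in all 21 tests, and the subunit medians were -0.07 in RNA for genotype in vehicle, 0.095 in RPFs after DHPG in WT slices. In footprints per RNA they were 0.11 for the former and 0.17 for the latter comparison.

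In WT vehicle the subunit median in RNA was 61.7 CPM per kb with the shortest coding transcript, and in RPFs 265 over the whole coding sequence and 294 for coding sequences over 300 bases. The assembly factor median of footprints per RNA was 4.19 with the shortest transcript. With 3 libraries a group, and SEs of about 0.05 to 0.35 on the log2 scale, small differences of low genes such as Ndufaf6 were not detectable. Abundant members also went uncalled by edgeR, such as Ndufa4 at 0.37 in footprints per RNA for genotype in vehicle. Ndufb4 at 0.24 in RPFs for DHPG in WT was not called either. The 0 calls therefore do not show that complex I genes were unchanged.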
